A study of Mus musculus with 288 samples.

Results

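The transcriptomes of mouse embryonic stem cells 24 h after release from 2i (label D1) were compared with those of cells still in 2i (label D0). Cells were kept when they had over 200000 reads on genes, over 2000 genes with a read and a mitochondrial share of reads under 0.15, which left 140 of the 192 wells under these labels, 90 in D0 and 50 in D1, out of 233 passing cells among the 288 wells of the whole series. All wells are labelled as the line E14 of strain 129/Ola. The D0 cells were grown in N2B27 medium with LIF and the inhibitors CHIR99021 and PD0325901, and the D1 cells came from the same medium and had been moved to serum with LIF, without the inhibitors, for 24 h. Cells labelled D2, at 48 h, passed in 93 wells and are given only as values beside the others. Single cells were sorted into a 96-well plate for each time point, treated with the GpC methylase M.CviPI and split into RNA and DNA, and only the RNA reads were used here.

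The 2i medium holds mouse embryonic stem cells in a uniform naive state by blocking MEK, and with it ERK signalling, and by blocking GSK3, which stabilises beta-catenin. LIF acts through the receptor subunits LIFR and gp130 on STAT3. Release from 2i lets ERK signalling resume and the naive transcription factors decline as cells move towards a formative state, while serum brings BMP and other growth factors.

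The labels give a day and a well position for each cell and no replicate cultures, so each label was taken as 1 culture on 1 plate, cells were not treated as replicates, no test was run, and time, plate and library cannot be told apart. The plates differ in ways that bear on every value below. Passing D1 cells were deeper, with a median of 7956161.5 reads against 1610758.5 in D0, and 45 of the 50 came from the 60 inner wells of the plate, whereas in D0 34 of the 36 outer wells passed. With each cell thinned to 200000 reads the median number of genes with a read was 7802.5 in D0 and 8065.5 in D1. Hprt, which encodes a purine salvage enzyme, had a read in 48 of 50 D1 cells at a mean of 207 ± 141 CPM (SD between cells), in 9 of 90 D0 cells at 3.08 ± 10.9 CPM and in 7 of 93 D2 cells at 2.68 CPM. A Y-linked gene (Ddx3y, Eif2s3y, Kdm5d or Uty) had a read in 48 D1 cells, 3 D0 cells and 5 D2 cells. D1 thus stands apart from both other labels in genes that are usually used to tell lines apart, although all 3 carry the same line name, and whether the D1 cells are of the same subline was not tested.

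The labelled cell type was checked against its markers. All 10 pluripotent stem cell markers had reads under both labels, and their summed level per cell ran from 1239.7 to 15681 CPM with a median of 4141 CPM in D0 and from 2946 to 15748 CPM with a median of 6878 CPM in D1. No fibroblast marker was detected widely enough to be compared, and Postn and Prrx1 had none at all. The summed fibroblast level had a median of 0 CPM in D0 and 0.386 CPM in D1. Of the primitive endoderm markers, 1 of 14 was detected widely enough to be compared, and Foxa2 had no read under either label. The compared marker, Lrp2, was higher in D1, with a log2 ratio of 1.79 (2.39 length-centred, as defined below). The summed primitive endoderm level had a median of 2.91 CPM in D0 and 55.4 CPM in D1, with highest cells of 227 and 240 CPM. The trophectoderm sum had a median of 62.6 CPM in D0 and 26.9 CPM in D1, the mesoderm sum 14.4 and 0 CPM and the neural sum 23.6 and 28.2 CPM. Of the 2-cell-like markers, Zscan4c, Zscan4d and Zfp352 had no read in either label, and the list's summed median of 556 CPM in D0 and 418 CPM in D1 came almost wholly from Eif1a. The part of such cells in the results was not tested.

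Levels are CPM, the reads of a gene in a cell for each 1000000 reads of that cell on genes, averaged over cells with equal weight, and differences are log2 ratios of mean CPM + 10, which understate the change of low genes. Genes detected in 50% or more of the D0 or of the D1 cells, 10493 in all, were compared, and a gene was counted as higher or lower when its ratio passed 2-fold. In D1, 774 genes (7.38%) were higher and 1753 (16.7%) were lower, of which 117 and 239 passed 4-fold. The counts of every list below are to be read against these shares, 7.38% higher and 16.7% lower. The median log2 ratio over all compared genes was -0.13. A gene rare in D0 was compared only when it was common in D1, and the reverse, so the medians of lists below are of compared members only and move with this filter. With thinned cells, 786 genes were higher and 1753 lower, and 2423 of the 2527 genes past 2-fold stayed past it on the same side. TMM scaling of summed reads, which sets the median of all genes at 0.03, gave 1070 higher and 1271 lower genes.

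**Figure D1:**
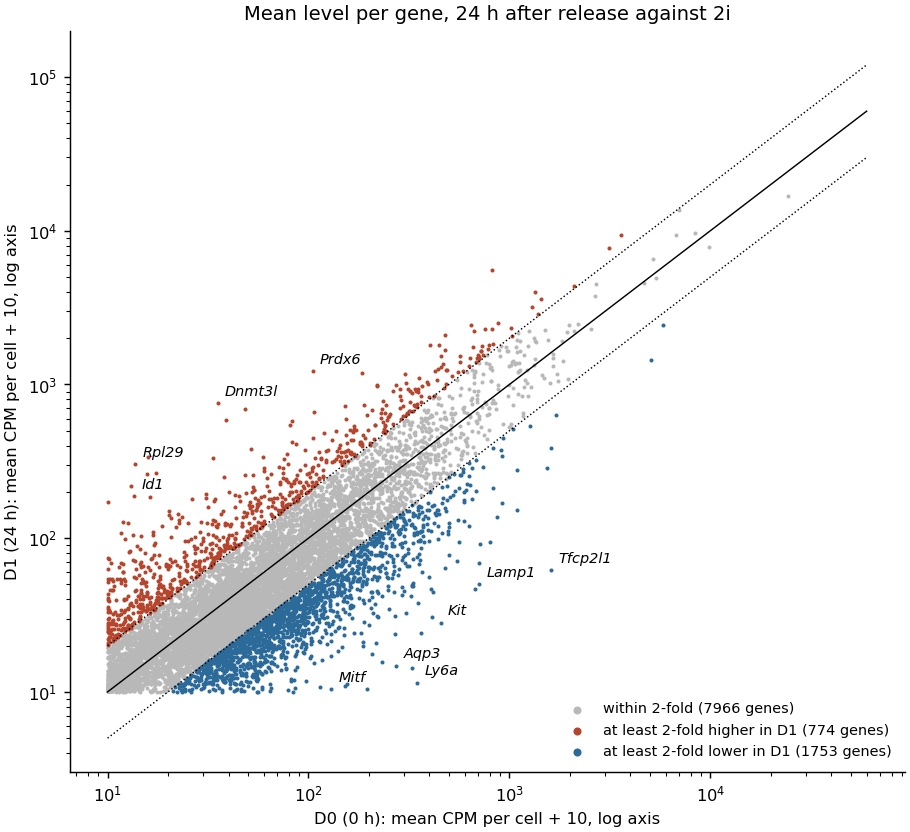
Mean level of each compared gene in D0 (x axis) and D1 (y axis), as CPM + 10 on log axes; the solid line is equality and the dotted lines are 2-fold. The 1753 genes below the lower line outnumber the 774 above the upper line, and Tfcp2l1, Lamp1 and Kit lie far below it.

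The ratio also moved with transcript length. Compared genes were put in 10 groups of equal size by the median length of their transcripts in GENCODE M21, which 10296 genes have. The median log2 ratio was 0.11 and 0.20 in the groups of the shortest transcripts and -0.78 in the longest, where 38.2% of genes were lower and 2.23% higher. D2 over D0, which shares the D0 cells, ran from 0.01 and 0.13 to -0.83 in the same groups. Lists of long genes therefore start below 0 and lists of short genes above it, and medians below are also given after the value of each gene's length group was subtracted (length-centred). On that scale 1012 genes (9.83%) were higher and 942 (9.15%) lower. What sets the trend was not tested.

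**Figure D2:**
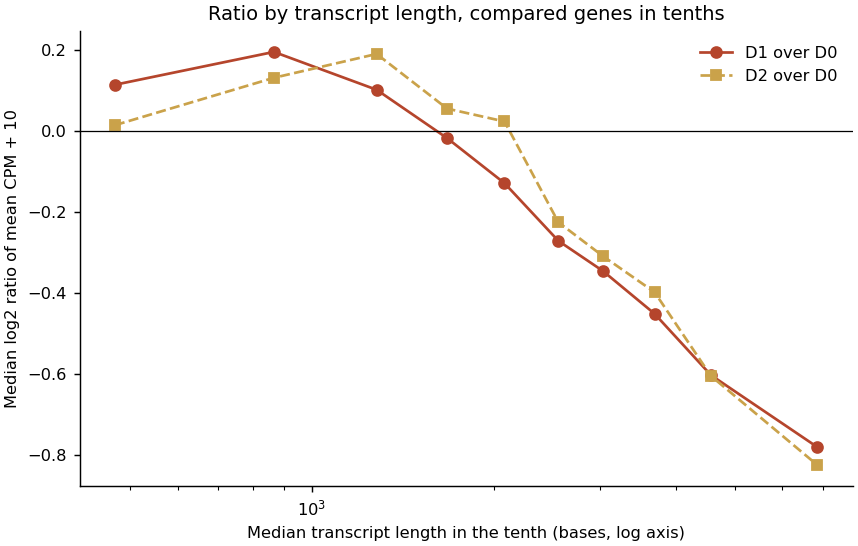
Median log2 ratio of D1 over D0 and of D2 over D0 (y axis) in 10 groups of compared genes by transcript length (x axis, log scale). D1 over D0 was 0.20 in the second shortest group and -0.78 in the longest.

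ERK targets and feedback genes were higher or within 2-fold, and none was lower. Of 30, 20 were compared, 5 were higher and 0 lower, against 7.38% higher among all genes, and the median log2 ratio was 0.52 (0.72 length-centred, 0.17 to 0.72 over the settings tried). Dusp6, the phosphatase that removes phosphate from ERK, had a lowest, median and highest level of 0, 0 and 121 CPM in D0 cells and of 0, 73.6 and 346 CPM in D1 cells. Below the D1 median lay 86 of 90 D0 cells, and 18 of 50 D1 cells lay above every D0 cell, so the labels overlapped. Its mean was 6.74 ± 20.9 CPM in D0 and 95.7 ± 84.8 CPM in D1, a log2 ratio of 2.66, and the share of cells with a read was 23.3% (95% Clopper-Pearson interval 15.1% to 33.4%) and 92% (80.8% to 97.8%). Intervals cover counting error only. Thinned to equal depth, the shares were 17.8% and 90%.

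Spry4, an inhibitor of receptor tyrosine kinase signalling, and Dusp4, another MAP kinase phosphatase, were higher too. Spry4 was at 4.34 ± 13.5 CPM in D0 and 47.5 ± 74 CPM in D1 (log2 ratio 2.00), with 66.6 CPM in D2. Dusp4 had a read in 2 of 90 D0 cells and in 42 of 50 D1 cells, with means of 0.304 and 23.3 CPM, a log2 ratio of 1.69. Plaur, the urokinase receptor, and the early response gene Ier3 were also higher, with log2 ratios of 2.67 and 1.49. In contrast, Etv5, a transcription factor of the ETS family, had a log2 ratio of -0.57 and Etv4 one of 0.28, both within 2-fold. Egr1 and Fos, the best known immediate early genes, had too few reads to be compared.

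Several direct targets of beta-catenin were lower. Of 22 genes in the Wnt list, 9 were compared, 1 was higher and 3 were lower against 16.7% among all genes, and the median was -0.62 (0.16 length-centred, -0.96 to 0.16 over the settings tried). Axin2, the scaffold of the complex that degrades beta-catenin, ranged over 0, 26.3 and 291 CPM (lowest, median, highest) in D0 and 0, 0 and 41.5 CPM in D1. Its share of cells with a read was 90% (81.9% to 95.3%) in D0 and 38% (24.7% to 52.8%) in D1, and 82.2% and 20% with thinned cells. Sp5, a transcription factor induced by Wnt, had a read in 71 of 90 D0 cells and 1 of 50 D1 cells (log2 ratio -1.65), and Cdx1, a caudal homeobox gene, in 71 and 2 (log2 ratio -1.94). Lef1, which is both a Wnt effector and a target, went the other way, from 4.55 ± 12.7 to 58.3 ± 78.9 CPM (log2 ratio 2.23), and stood at 3.96 CPM in D2.

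The list of LIF and STAT3 targets had 5 of 15 compared lower (33.3%, against 16.7% of all genes) and 1 higher (6.67%, against 7.38%). The median was -0.78 (-0.32 length-centred, -1.07 to -0.32 over the settings tried). Among the lower genes, Tfcp2l1 and Klf4 are counted again in the naive list below. Both receptor subunits were lower. Lifr had a log2 ratio of -1.53 and Il6st, which encodes gp130, one of -1.56. Pim1, a kinase induced by STAT3, was at 114 ± 83.5 CPM in D0 and 10.6 ± 18.6 CPM in D1 (log2 ratio -2.59). Pim2, a kinase of the same family, went the other way with 6.2 ± 15.9 and 175 ± 164 CPM (3.51). Socs3, the feedback inhibitor of the pathway, was within 2-fold with a log2 ratio of -0.17.

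Genes of the Id family, targets of BMP signalling, were higher. Of the BMP list 4 of 8 compared genes were higher (50%, against 7.38% of all genes) and 2 lower (25%, against 16.7%). The list's median of 0.62 (1.06 length-centred) turned to -0.06 when genes read in 20% of cells were let in and to -0.02 with no such filter. Id1, an inhibitor of basic helix-loop-helix factors, had 0, 0 and 51.3 CPM (lowest, median, highest) in D0 and 0, 43.3 and 1398 CPM in D1, and 23 D1 cells lay above the highest D0 cell. Its mean was 3.54 ± 9.09 CPM in D0 and 177 ± 300 CPM in D1. The log2 ratios were 3.79 for Id1, 2.72 for Id2 and 2.33 for Id3, while the receptor genes Bmpr1a and Bmpr2 had -1.24 and -1.06, which became -0.79 and -0.28, within 2-fold, when length-centred.

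**Figure D3:**
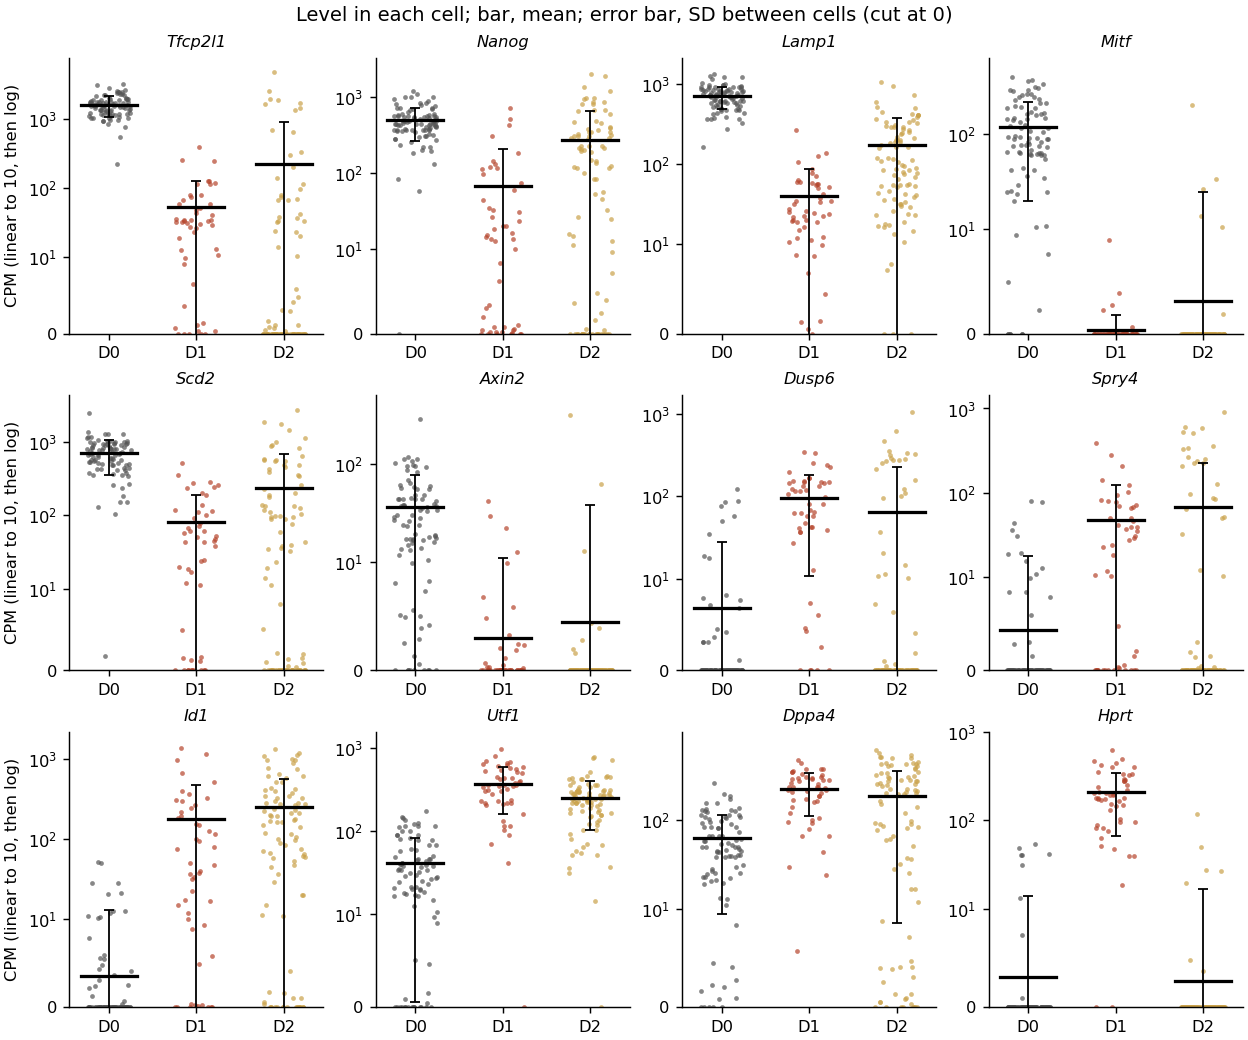
Level of 12 genes in every passing cell of D0, D1 and D2 (y axis, CPM, linear to 10 and then log); bars are means and error bars the SD between cells, cut at 0. The D0 cells of Tfcp2l1 and Lamp1 lie above nearly every D1 cell, Dusp6 and Id1 have higher means in D1 with overlapping cells, and Hprt is high in D1 only.

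The naive pluripotency factors were lower as a group. Of 20, all were compared, 13 were lower and 2 higher, and the median log2 ratio was -1.53 (-1.30 length-centred, -1.84 to -0.91 over the settings tried). Tfcp2l1, a transcription factor that upholds the naive state downstream of LIF, ranged over 224, 1565 and 3199.7 CPM in D0 and 0, 32.1 and 390 CPM in D1. Every D0 cell lay above the D1 median and 47 of 50 D1 cells lay below the lowest D0 cell, with a log2 ratio of -4.70 and means of 1598 ± 533 and 51.9 ± 73.2 CPM.

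Nanog was lower, at 489 ± 228 CPM in D0 and 67.2 ± 139 CPM in D1, with 89 of 90 D0 cells above the D1 median (log2 ratio -2.69). Tbx3, a T-box factor, had a read in 98.9% of D0 cells and 34% of D1 cells (log2 ratio -2.68). The Krüppel-like factors Klf2 and Klf4 had log2 ratios of -2.26 and -1.65, Esrrb, an orphan nuclear receptor, -1.94, Prdm14 -2.07 and Tcl1 -2.75. Zfp42, known as Rex1, was lower by less, at 896 ± 325 and 362 ± 263 CPM (log2 ratio -1.28). Against the group, Nr0b1, known as Dax1, had a log2 ratio of 1.53, and Manba, which the list also holds, one of 1.42. Fgf4, the ligand that feeds ERK signalling in these cells, was within 2-fold at 183 ± 113 and 175 ± 128 CPM.

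Of the core pluripotency factors 13 of 14 were compared, 6 were higher and 0 lower, with a median of 0.74 (0.86 length-centred). Pou5f1, the gene of OCT4, was at 502 ± 184 CPM in D0 and 633 ± 323 CPM in D1 (log2 ratio 0.33), and Sox2 at 65.05 and 57.8 CPM (-0.15). The larger ratios belonged to Utf1, Dppa2 and Dppa4, chromatin factors of pluripotent cells, with 2.88, 2.12 and 1.69. Utf1 had 0, 30.4 and 173 CPM (lowest, median, highest) in D0 and 0, 352 and 979 CPM in D1, and 41 of 50 D1 cells lay above the highest D0 cell. Lin28a, an RNA-binding protein that blocks let-7, had a log2 ratio of 1.31.

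Formative and primed markers were higher or within 2-fold, with 6 of 15 compared genes higher (40%, against 7.38% of all genes) and 0 lower. When length-centred, 10 were higher and 1 lower. The median was 0.94 (1.35 length-centred, 0.31 to 1.35 over the settings tried). Sox11, a SoxC transcription factor, had a read in 1 of 90 D0 cells and 42 of 50 D1 cells, and its mean was 43.9 ± 118 CPM in D1 and 1.73 CPM in D2. Pou3f1, the gene of OCT6, had a read in 3.33% of D0 cells and 76% of D1 cells at 12.2 ± 15.2 CPM in D1. Zic5 and Zic2, zinc finger factors, had log2 ratios of 1.59 and 1.33 and Tcf15 one of 1.28. Otx2 was within 2-fold, at 12.7 ± 28.5 and 8.12 ± 21.3 CPM, and Fgf5, the marker most used for the primed state, had too few reads to be compared.

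**Figure D4:**
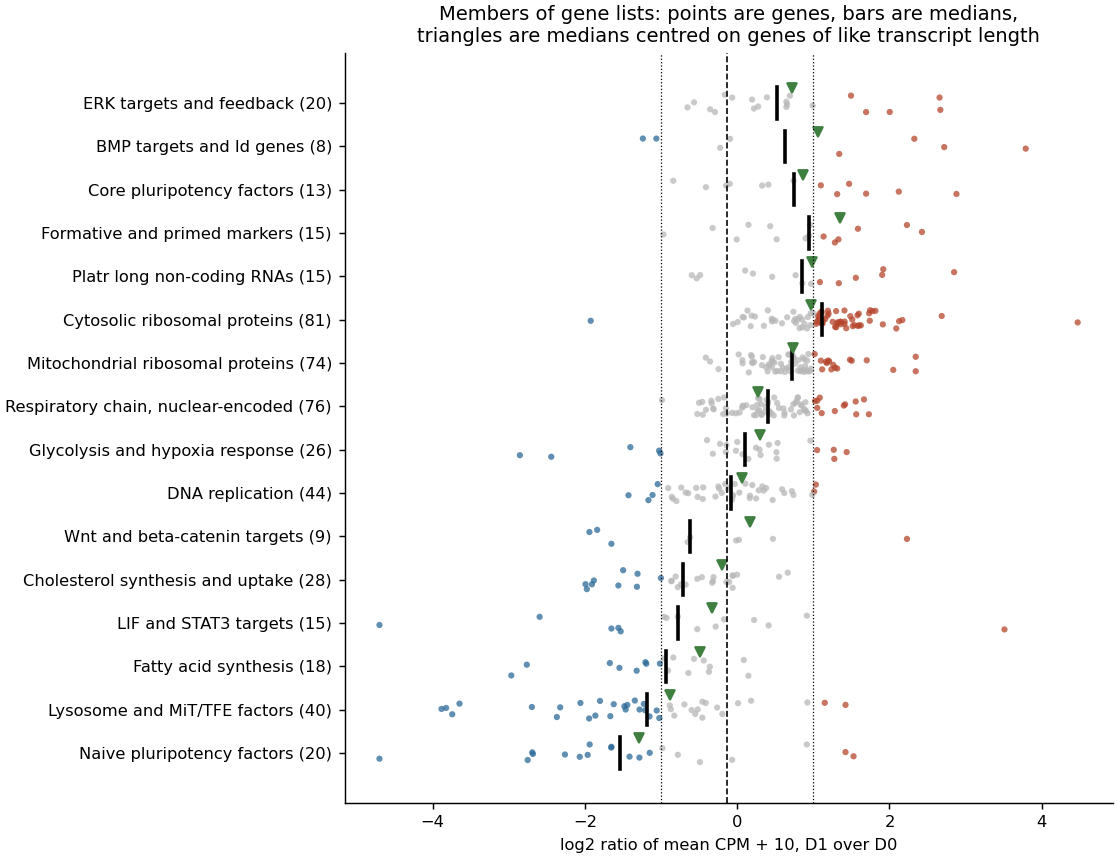
Log2 ratio of each compared member (points) of 16 gene lists, with the number compared in brackets; bars are the medians, triangles the length-centred medians, the dashed line the median of all genes at -0.13 and the dotted lines 2-fold. The naive and lysosomal lists lie furthest to the left, with medians of -1.53 and -1.18, and ribosomal proteins furthest to the right with 1.11.

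Among genes of DNA methylation and demethylation the de novo enzymes Dnmt3a and Dnmt3b and their cofactor Dnmt3l were higher, with log2 ratios of 4.06, 1.60 and 4.42. The maintenance genes moved the other way. Uhrf1, which guides DNMT1 to hemimethylated DNA, was at 913 ± 392 CPM in D0 and 333 ± 212 CPM in D1 (log2 ratio -1.43), and 84 of 90 D0 cells lay above the D1 median. Dnmt1 was at 172 ± 134 and 72.2 ± 51.5 CPM (log2 ratio -1.15, -0.37 length-centred). Tet2, a methylcytosine dioxygenase, had a log2 ratio of -1.96 with a D2 mean of 427 CPM, above D0 at 286 CPM, while Tet1 was within 2-fold at -0.32. In all 3 of 16 compared genes were higher (18.75%, against 7.38% of all genes) and 5 lower (31.25%, against 16.7%). When length-centred, 3 were higher and 2 lower. The median was -0.46 (0.05 length-centred, -0.67 to 0.05 over the settings tried). Germline genes that DNA methylation silences had members on both sides, with 5 of 14 higher (35.7%) and 4 lower (28.6%) against 7.38% and 16.7% of all genes, and a median of -0.21 that turned to 0.26 length-centred. Ddx4, the germ cell helicase, had a log2 ratio of 2.17 and Dazl, a germ cell RNA-binding protein, one of -1.68.

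Genes of the lysosome were lower, and their promoters are shown because a sequence bound by their regulators recurs in them. This list was added after values of its members had been seen. MITF, TFEB and TFE3 are related factors that bind TCACGTG in promoters of lysosomal genes. RefSeq promoters (GRCm38.p6, 250 bases before to 50 after the gene's start) were matched by symbol to 31 of the 40 compared genes of the list, and TCACGTG or its reverse complement CACGTGA was found in 9 of them: Lamp1, Ctsa, Ctsd, Gaa, Gla, Glb1, Cln3, Mcoln1 and Fnip1. Among the 7149 compared genes with a promoter 8.10% held it. The stretches around the match follow for 4 of the 5 genes with a match that were lower, chosen for being lower, namely Lamp1 (chr8:13159049-13159155, plus strand), Ctsa (chr2:164833710-164833816, plus strand), Glb1 (chr9:114400979-114401085, plus strand) and Mcoln1 (chr8:3500397-3500503, plus strand), each 5′ to 3′ with every match in capitals, where a run of TCACGTGA is a match on both strands.

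Lamp1: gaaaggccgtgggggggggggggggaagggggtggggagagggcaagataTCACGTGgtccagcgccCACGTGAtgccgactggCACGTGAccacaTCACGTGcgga

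Ctsa: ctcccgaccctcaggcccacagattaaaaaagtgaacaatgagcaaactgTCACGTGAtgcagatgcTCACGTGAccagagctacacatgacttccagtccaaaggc

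Glb1: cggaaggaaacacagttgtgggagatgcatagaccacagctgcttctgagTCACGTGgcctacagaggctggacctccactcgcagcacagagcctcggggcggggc

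Mcoln1: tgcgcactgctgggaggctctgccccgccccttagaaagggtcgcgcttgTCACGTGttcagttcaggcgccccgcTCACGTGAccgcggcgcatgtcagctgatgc

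Of the 9 genes with the match, 5 were lower, and their median log2 ratio was -1.15 and that of the 22 without it -1.13.

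Of the 51 genes of the lysosomal list, 40 were compared, 23 were lower, 2 were higher and the median log2 ratio was -1.18 (-0.89 length-centred). The list's summed level per cell ranged over 2346, 6323 and 12629 CPM (lowest, median, highest) in D0 and 512, 2650 and 6135 CPM in D1, so the labels overlapped. Lamp1, the most used lysosomal membrane marker, had 162, 708 and 1303 CPM in D0 and 0, 24.9 and 269 CPM in D1. In 49 of 50 D1 cells Lamp1 lay below the lowest D0 cell, and the means were 699 ± 222 and 40.1 ± 45.3 CPM (log2 ratio -3.82), with 174 CPM in D2. Lamp2, its companion in the membrane, had a log2 ratio of -3.74.

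Several enzymes of the lumen were lower and others were not. Ctsc, cathepsin C, was at 221 ± 156 and 5.68 ± 15 CPM (log2 ratio -3.88) and Ctsl, cathepsin L, at 338 ± 174 and 99.7 ± 113 CPM (-1.67). Hexa, a lysosomal glycosidase subunit, had -2.70, and Glb1, the beta-galactosidase, -1.94. Psap, the precursor of the saposins, had -1.86. Ctsd, cathepsin D, was within 2-fold at -0.20.

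Of the regulators, Mitf was at 120 ± 100 CPM in D0 and 0.365 ± 1.43 CPM in D1, with a read in 84 of 90 D0 cells and 5 of 50 D1 cells (log2 ratio -3.65), and D2 stood at 3.1 CPM. Trpm1, an ion channel gene known as a MITF target, had 185 ± 171 CPM in D0 and a read in 1 of 50 D1 cells (log2 ratio -4.21). Tfe3 was within 2-fold at 0.92, and Tfeb had too few reads to be compared. Fnip1 and Fnip2, partners of folliculin in the control of TFE3, had -2.37 and -2.32, and Flcn, folliculin itself, -0.52. The proton pump that acidifies the lysosome, listed in the same way, had 6 of 17 lower (35.3%, against 16.7% of all genes) and 0 higher. Its median was -0.44 (0.05 length-centred). Sqstm1, an autophagy receptor, and Manba, a mannosidase, were the 2 higher genes of the list, with log2 ratios of 1.15 and 1.42.

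**Figure D5:**
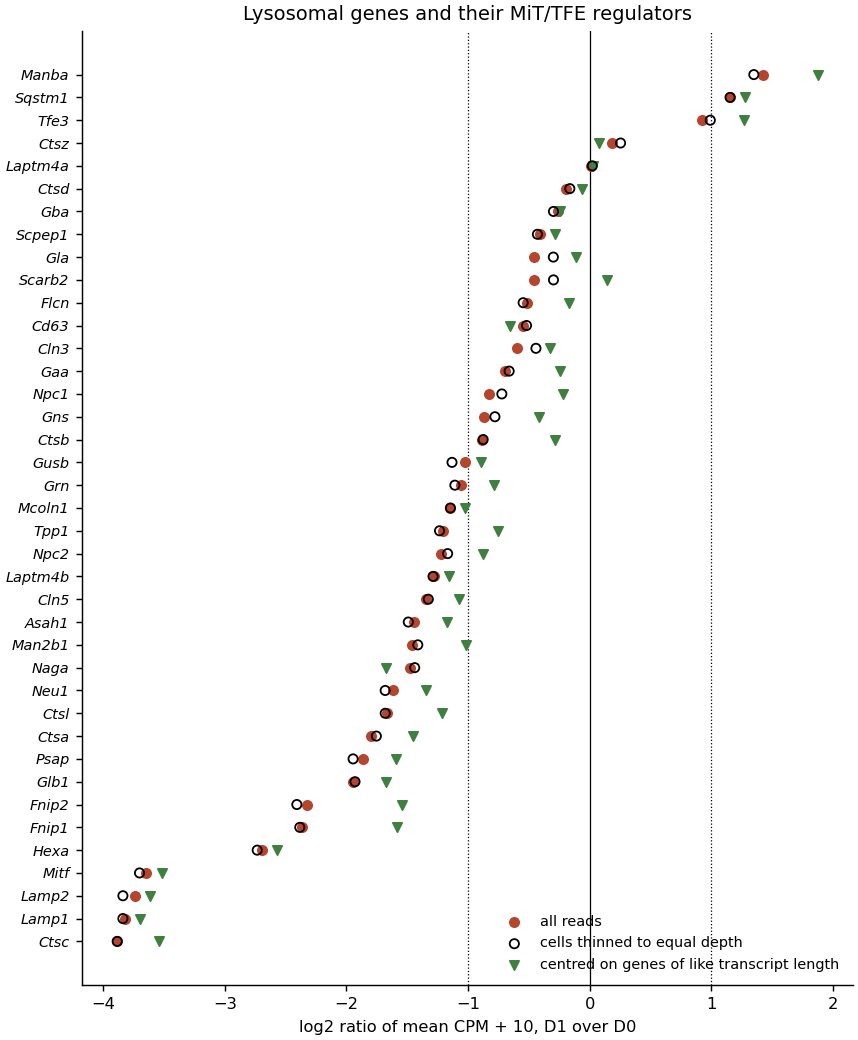
Log2 ratio of 39 of the 40 compared genes of the lysosomal list (x axis), sorted, from all reads (filled circles), from cells thinned to equal depth (open circles) and length-centred (triangles); dotted lines are 2-fold. Ctsc, Lamp1, Lamp2 and Mitf lie lowest, between -3.88 and -3.65, and thinning moved little.

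No gene of lipid synthesis was higher. Of the cholesterol genes 28 were compared, 9 were lower and 0 higher, with a median of -0.71 (-0.20 length-centred, -0.43 with reads summed over cells and -0.24 with TMM scaling of those sums), and of the fatty acid genes 18 were compared, 8 lower and 0 higher, with a median of -0.93 (-0.49 length-centred, -0.75 with summed reads and -0.56 with their TMM scaling). The desaturase genes Scd2 and Scd1 had the largest ratios. Scd2 was at 705 ± 349 CPM in D0 and 81.4 ± 110 CPM in D1 (log2 ratio -2.97) and Scd1 at 281 ± 181 and 32.8 ± 42.6 CPM (-2.76). Srebf1, the transcription factor of fatty acid synthesis, had -1.67. The exporters Abca1 and Abcg1 were lower as well, at -1.97 and -1.99.

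Glycolysis and the hypoxia response held genes on both sides, with 4 of 26 compared genes higher (15.4%, against 7.38% of all genes). Lower were 5 (19.2%, near the 16.7% of all genes). The median was 0.11 (0.31 length-centred, -0.03 to 0.56 over the settings tried). Slc2a1, the glucose transporter GLUT1, had a log2 ratio of 1.05, while Slc2a3, GLUT3, was at 912 ± 584 CPM in D0 and 160 ± 172 CPM in D1 (-2.44). Ldha, the lactate dehydrogenase subunit of glycolytic cells, was at 721 ± 508 and 1761 ± 1104 CPM (1.28), Ldhb had -1.01, and Slc16a3, the lactate exporter, 1.44. Hk1, a hexokinase, had -2.85, and Hk2 was at 171 CPM under both labels.

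Of 81 cytosolic ribosomal protein genes 49 were higher and 1 lower, and 37 were higher and 1 lower when length-centred. The median was 1.11 (0.97 length-centred). Their summed level had a median of 54286 CPM in D0 and 100224 CPM in D1, and 71400 CPM in D2. Some of these genes have near-identical copies between which reads can be split, and their values are uncertain. Mean levels of Rpl29 were 3.73, 295 and 10.2 CPM in D0, D1 and D2, and those of Rpl24 54.8, 7.08 and 79.6 CPM. Beside them, the ferritin copies Ftl1 and Ftl2 had log2 ratios of 2.17 and -3.85 with a summed mean of 1054 ± 380 CPM in D0 and 1824 ± 727 CPM in D1. Ftl2 alone was at 664, 36.8 and 1136 CPM in D0, D1 and D2, and Rpl34 at 175, 1178 and 178 CPM, so D1 stood apart from both other labels in these copies, and whether its reads were counted in the same way was not tested. Hmgn2, a nucleosome-binding protein with many copies, had 3.32.

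Of the MYC family and the genes of ribosome biogenesis 37 were compared. Of these 7 were higher (18.9%, against 7.38% of all genes) and 3 lower (8.11%, against 16.7%). The median was 0.45 (0.65 length-centred, 0.23 to 0.72 over the settings tried). The summed level of the list ranged over 7938, 11085 and 15176 CPM (lowest, median, highest) in D0 and 10771, 21018 and 36692 CPM in D1, with a D2 median of 11002 CPM. Myc, the transcription factor that drives ribosome production, was at 2.72 ± 7.67 CPM in D0 and 70.8 ± 75.7 CPM in D1 (log2 ratio 2.67), and 27 of 50 D1 cells lay above the highest D0 cell. Npm1 and Ncl, the nucleolar proteins nucleophosmin and nucleolin, had log2 ratios of 1.39 and 1.32, with 36 and 29 D1 cells above the highest D0 cell. Asns, the asparagine synthetase of the ATF4 response, went the other way, with 1531 ± 639.6 CPM under D0, 277 ± 386 under D1 and 1615 under D2 (log2 ratio -2.43 for D1). The ATF4 list had 2 of 27 higher (7.41%, near the 7.38% of all genes). Lower were 7 (25.9%, against 16.7% of all genes), and 5 when length-centred. Its median was -0.45 (-0.28 length-centred, -0.10 with summed reads and 0.09 with their TMM scaling).

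Of 74 mitochondrial ribosomal protein genes, a list added after values were seen, 17 were higher (23%, against 7.38% of all genes) and 0 lower. Their median was 0.73 (0.74 length-centred). Nuclear-encoded respiratory chain genes had 12 of 76 higher (15.8%, against 14.6% in the length group of the list's median length) and 0 lower with a median of 0.41 (0.28 length-centred), led by Uqcrq and Atp5e, small subunits of complex III and of the ATP synthase, at 1.73 and 1.67. The transcripts of the mitochondrial genome had 0 of 15 higher and 5 lower (33.3%, against 16.7% of all genes), among them mt-Nd5 at -1.24. Their median was -0.32 (-0.44 length-centred). Proteasome subunits had 8 of 36 higher (22.2%, against 7.38% of all genes) and 0 lower and a median of 0.41 (0.39 length-centred).

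The list of keratins, annexins, S100 proteins and other cytoskeletal genes had 11 of 28 compared genes higher (39.3%) and 6 lower (21.4%), against 7.38% and 16.7% of all genes. Its median was 0.25 (0.27 length-centred, 0.55 with summed reads and 0.72 with their TMM scaling, 0.04 to 0.72 over the settings tried). S100a6, a small calcium-binding protein, had a read in 24.4% of D0 cells and 96% of D1 cells, with means of 5.89 ± 29 and 329 ± 775 CPM (log2 ratio 4.41). Tmsb4x, thymosin beta 4, which binds actin monomers, was at 38.2 ± 111 and 678 ± 666 CPM (3.84), and Lgals1, a galectin, had 2.40. Anxa4, an annexin, and Msn, moesin, had -2.52 and -2.13.

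Imprinted genes included members on both sides, with 5 of 29 higher (17.2%, against 7.38% of all genes) and 4 lower (13.8%, against 16.7%). Their median was 0.22 (0.21 length-centred, -0.02 with reads summed over cells, -0.05 to 0.30 over the settings tried). Peg3, a zinc finger gene expressed from the paternal copy, was at 70.5 ± 114 CPM in D0 and 535 ± 540 CPM in D1 (log2 ratio 2.76) and at 77.3 CPM in D2. Mest and Phlda2 had 2.28 and 2.29. Plagl1, a zinc finger gene of the same network, was at 352 ± 397 and 14.05 ± 44.4 CPM (-3.91).

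Genes of DNA replication and of mitosis passed 2-fold on both sides. DNA replication genes had 2 of 44 higher (4.55%, against 7.38% of all genes) and 4 lower (9.09%, against 16.7%), with a median of -0.08. Those of G2 and mitosis had 3 of 39 higher (7.69%, near the 7.38% of all genes) and 2 lower (5.13%), with a median of -0.04. Neither direction was stable, since the medians were 0.06 and 0.33 length-centred and 0.25 and 0.18 with summed reads and TMM scaling, and that of G2 and mitosis was 0.34 as a difference of mean log2 levels. The retinoic acid list had 4 of 9 compared genes higher (44.4%, against 7.38% of all genes). Lower were 2 (22.2%, against 16.7%), Meis2 and Cdx1. Its median was 0.79 (0.59 length-centred, 0.01 to 1.93 over the settings tried). Crabp2, a retinoic acid carrier, had a read in 0 of 90 D0 cells and in 36 of 50 D1 cells at 53.2 ± 68.6 CPM. With 3 cells taken as the limit for a count of 0, the D0 share could be up to 3.33%, which is not a Clopper-Pearson limit. The receptor genes Rarg and Rara had log2 ratios of 2.19 and 1.49.

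The largest single changes included genes of no list described above. Ly6a, the surface antigen Sca-1, had a read in 80 of 90 D0 cells and 5 of 50 D1 cells, with means of 338 ± 323 and 1.49 ± 6.51 CPM (log2 ratio -4.92). Kit, the receptor for stem cell factor, was at 445 ± 272 and 18.2 ± 29.1 CPM (-4.01). Ly75, an endocytic receptor, had -4.51, Aqp3, a water and glycerol channel, -4.21, Rnf213, a ubiquitin ligase, -3.79, Slc30a2, a zinc transporter, -3.78 and Fxyd6, a sodium pump regulator, -3.55. On the other side, Prdx6, a peroxiredoxin, was at 95.1 ± 110 and 1208 ± 1007 CPM (3.53). Emb, embigin, a companion of lactate transporters, had 3.94, Aire, the autoimmune regulator, 3.32, Foxp1, a forkhead factor, 3.22 and Uchl1, a ubiquitin hydrolase, 2.98. In D2 the means were 4.23 CPM for Ly6a, 13.1 CPM for Kit, 775 CPM for Prdx6 and 91.1 CPM for Aire.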

How the data were processed

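Mouse embryonic stem cells labelled D0, D1 and D2 were profiled by scNMT-seq. The authors deposited a table that the labels call filtered and normalized, but its values are whole numbers for all 288 wells with unequal totals and were taken as raw counts. The submitters' processing notes name HISAT2 and GRCm38, while the annotation and the counting tool are not given in the sources used here. Rows that shared a name were summed. Cells were filtered on reads and genes as in the study. Its mitochondrial limit is written as 0.15%, and was read here as a share of 0.15, since the median share was 4.54% in D0 and 3.32% in D1, and the number of cells kept is not the study's. Counts were scaled to CPM and averaged, with 10 CPM added before log2 ratios, with scipy 1.17.1, pandas 2.3.3 and numpy 2.4.6 under Python 3.11.15. Thinning drew 200000 reads per cell. Lengths came from GENCODE M21, which may not be the annotation of the authors. TMM factors came from edgeR 4.0.16 in R 4.3.3, used for scaling only.

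Named genes are the 15 largest rises and the 15 largest falls among compared genes with an established symbol that keep their direction with thinned cells, up to 6 members of each list with the largest ratios, and members whose role the text needs. The groups, lists and rules were chosen with earlier results of these data known. No wells with at least 1000 reads had identical counts. Alternatives covered filters on cells and genes, depth, scaling, pseudocounts, plate position and transcript length. Some results are not reported here.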

Additional observations from a re-analysis of the deposited data

Results flagged for a closer look

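Wells that failed the filter on cells were used in no comparison, and those of D1 held reads of genes that are rare in D0. In the 27 failing D1 wells with at least 1000 reads, reads of Hprt summed to 142 CPM and those of the Y-linked genes to 273 CPM, against 2.87 and 15.3 in the passing D0 cells and 0 and 0 in the 2 failing D0 wells of that depth. In the passing D1 cells the same sums were 256 and 298 CPM. The Hprt sum of the failing D1 wells rests on 50 reads in 11 of the 27 wells (40.7%), and 12 of them (44.4%) had a Y-linked read, against 96% of the passing D1 cells for either.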

How the results depend on the processing

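No paired analysis was possible because the labels give only a day and a well position, and well positions do not pair cells. Of the alternative settings, centring on transcript length and totals without ribosomal protein genes were added after the data were seen. The 30 genes with the largest ratios kept their direction and stayed past 2-fold under the 20 settings that give a ratio for a gene (19 for Ftl2, which has no length to centre on). They were chosen from these same cells for large ratios that keep direction when thinned, so this stability is no independent check. Hprt and the Y-linked Eif2s3y are among them. The genes higher and lower numbered 774 and 1753, but 117 and 239 at 4-fold, 302 and 461 with a pseudocount of 50 CPM, 1381 and 2629 with 1 CPM, and 1012 and 942 length-centred. The median of all genes was -0.13, but -0.07 with summed reads, 0.03 with TMM and 0.01 with median-of-ratios factors on those sums, where the last 2 had 45.7% and 42.4% of genes past 2-fold higher in place of 30.6%, and length-centring 51.8%.

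The median of the cholesterol list was -0.71, but -0.43 with reads summed over cells, -0.24 and -0.28 with TMM and median-of-ratios factors on those sums, and -0.20 length-centred. Ribosomal proteins had 0.97 length-centred, 0.93 with the median over cells and 0.98 in plate columns 1 to 6, formative markers 1.35 length-centred, and lysosomal genes -0.69 with a pseudocount of 50 CPM. Without the filter on cells, the D1 shares of cells with a read were 89.6% for Dnmt3l, 66.2% for Dusp6, 68.8% for Lamp1 and 63.6% for Tfcp2l1. The Tfcp2l1 share was 78% after thinning and 100% in plate columns 1 to 6. Lamp1 and Dusp6 had 100% in cells within a narrower window of depth, and Lamp1 100% with stricter minimums of reads and genes and in plate columns 1 to 6. Causes were not tested. Depth limits genes under about 1 read per cell, and with 1 plate per label no value separates 24 h of release from the D1 plate.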

Other observations

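Further groups of genes were looked at after their values had been seen. Of 236 compared zinc finger genes named Zfp, 69 were lower (29.2%, against 16.7% of all genes) and 13 higher (5.51%, against 7.38%). When centred on genes of like transcript length, 39 were lower and 15 higher. The median log2 ratio of -0.49 became -0.14 on that scale. Zfp976 was at 207 ± 344 CPM in D0 and 10.95 ± 26.7 CPM in D1 (log2 ratio -3.38), while Zfp985 had 1.51. Of 15 compared Platr genes, long non-coding RNAs named for their link to pluripotency, 6 were higher (40%, against 7.38% of all genes) and 0 lower. Their median was 0.85 (0.98 length-centred, 0.05 to 1.53 over the settings tried), the lowest being with no filter on genes. Platr5 had a read in 6.67% of D0 cells and 78% of D1 cells (log2 ratio 2.85). Of the 4 compared Bex genes, small X-linked genes, 3 were higher, with log2 ratios of 2.24 for Bex1, 1.95 for Bex3 and 1.89 for Bex4.

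Enzymes of choline, betaine and methionine metabolism had 5 of 10 lower (50%, against 16.7% of all genes) and 0 higher, and 4 lower and 1 higher when length-centred. The median was -0.80 (-0.18 length-centred), while the summed level of the list had a median of 1595 CPM in D0 and 1909.6 CPM in D1. Fatty acid oxidation had 4 of 19 lower (21.1%) and 0 higher, and the citric acid cycle 4 of 25 lower (16%) and 0 higher, both near the 16.7% lower among all compared genes.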
